A study of Mus musculus with 4 samples.

Results

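The axon guidance ligands and receptors were examined in RNA from mouse colon adenoma organoids, 3D cultures of tumour epithelium. The set held every gene whose array symbol named a class-lettered semaphorin, a plexin, neuropilin 1 or 2, a Robo or Slit, a numbered netrin, an Unc5 receptor, an Eph receptor or an ephrin. It came to 65 of the 17097 genes with a probe set annotated to 1 gene alone, each read from its probe set with the highest mean. Family members without such a probe set, among them Ephb2, Efna3 and Slit3, were not in the set. Of the 65 genes, 44 lay above the filter on dim genes (a mean of 4.45 log2 units) and were among the 11874 genes tested. The 65 were 33 ligands and 32 receptors, with 26 ligands and 18 receptors tested.

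There were 4 arrays in 2 groups. The arrays labelled Apc null were from organoids with floxed Apc and wild-type Gata6 alleles, and those labelled Gata6 null/Apc null from organoids in which both genes were floxed. All were C57BL/6 and shared the loss of Apc, the brake on Wnt signalling, through a Cre recombinase that the Villin promoter restricts to intestinal epithelium and tamoxifen switches on. All had 7 days in an EGF medium, and batch letters A and B each cover 1 array per group. Nothing in the labels says whether the replicates came from separate mice, so the p-values may measure technical spread. The comparison asks which genes depend on GATA6, a transcription factor of endoderm, in adenoma cells. The Gata6 probe set used, 1 of 2 for the gene, was not lower, with values of 8.89 and 8.61 in the Apc null arrays of batches A and B and 9.37 and 9.40 in those labelled Gata6 null/Apc null. It was higher by 0.64 log2 units, which passed with batch as a fixed block in the fit (limma adjusted p = 0.0392) and not without it (0.418). Whether that probe set lies in the deleted part is not known here, so each direction rests on the labels. Differences are log2 values of those labelled Gata6 null/Apc null minus those labelled Apc null.

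Guidance cues were first known as signals that attract or repel growing axons, and epithelia use the same families to place cells, form boundaries and limit migration. Slits bind Robo receptors. Semaphorins bind plexins, and most secreted class 3 members need a neuropilin as co-receptor, which also binds VEGF. Ephrins are membrane-bound ligands of the Eph receptor tyrosine kinases, and in the intestinal crypt this pair is known for sorting cells along the crypt axis and for being under Wnt control. Netrins bind DCC and the Unc5 receptors.

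The stretches around the annotated starts of Robo1 and Nrp1 are shown because these were the members past the threshold, and that of Epha2 because it held the single motif found among the called members. Each runs from 250 bases before the start to 50 after it, 5′ to 3′ on the plus strand, from RefSeq on GRCm38.p6. They lie at chr16:72662899-72663198 for Robo1, chr8:128358823-128359122 for Nrp1 and chr4:141300971-141301270 for Epha2.

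Robo1: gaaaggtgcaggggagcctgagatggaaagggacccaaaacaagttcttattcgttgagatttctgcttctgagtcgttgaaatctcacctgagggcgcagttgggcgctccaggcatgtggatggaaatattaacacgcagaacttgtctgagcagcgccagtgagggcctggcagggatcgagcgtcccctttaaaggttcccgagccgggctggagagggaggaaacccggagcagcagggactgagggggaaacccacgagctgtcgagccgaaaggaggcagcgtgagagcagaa
Nrp1: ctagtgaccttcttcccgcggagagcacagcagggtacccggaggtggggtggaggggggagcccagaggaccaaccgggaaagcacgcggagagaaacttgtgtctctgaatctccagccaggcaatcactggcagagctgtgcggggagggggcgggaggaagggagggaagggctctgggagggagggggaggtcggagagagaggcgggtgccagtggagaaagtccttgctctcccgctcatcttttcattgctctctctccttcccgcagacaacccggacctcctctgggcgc
Epha2: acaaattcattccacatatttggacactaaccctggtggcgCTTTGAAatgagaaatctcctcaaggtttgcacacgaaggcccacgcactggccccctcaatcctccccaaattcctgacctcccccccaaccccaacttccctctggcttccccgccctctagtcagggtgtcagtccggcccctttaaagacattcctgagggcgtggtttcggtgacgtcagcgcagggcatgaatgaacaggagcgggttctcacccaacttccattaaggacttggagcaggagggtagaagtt

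Capitals mark the motif CTTTGAA, a TCF/LEF core, on the plus strand of Epha2, where its first base is at position -209 (with -1 as the last base before the start). The motifs searched on both strands were AGATAA and TGATAA, cores bound by GATA factors, and CTTTGAT and CTTTGAA, bound by TCF/LEF factors. CTTTGAT and TGATAA can share bases, and each match was counted. Neither GATA core was in the windows of the 7 called members with an entry. Over 71 windows of 56 members, 6 held a GATA core (8.45%) and 3 a TCF/LEF core (4.23%), against 18.6% and 8.65% of the 32851 windows of that length in the table. The member windows were richer in G and C, at a median of 64.0% against 52.7%, and the part of this in the motif shares was not tested. No match says only that these letters are missing from these windows.

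Of the 44 members tested, 1 was higher and 1 lower at a limma adjusted p under 0.05, Robo1 and Nrp1. Over all genes, 0.522% were called higher and 0.126% lower. With batch as a fixed block in the fit, 8 members were called (18.2%), against 6.88% of all genes, 4 higher (Robo1, Sema3f, Ephb6, Plxnb1) and 4 lower (Nrp1, Sema4g, Epha2, Sema4b). All genes were called higher in 3.91% and lower in 2.97% of cases by that fit. The block is used beside the main result because the labels tie 1 array of each genotype to a batch. It leaves 1 residual degree of freedom, so its p-values lean on the spread shared across genes. When each probe set was tested separately, an alternative added after the data were seen, neither Robo1 nor Nrp1 passed, each with a limma adjusted p of 0.0613.

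**Figure D1:**
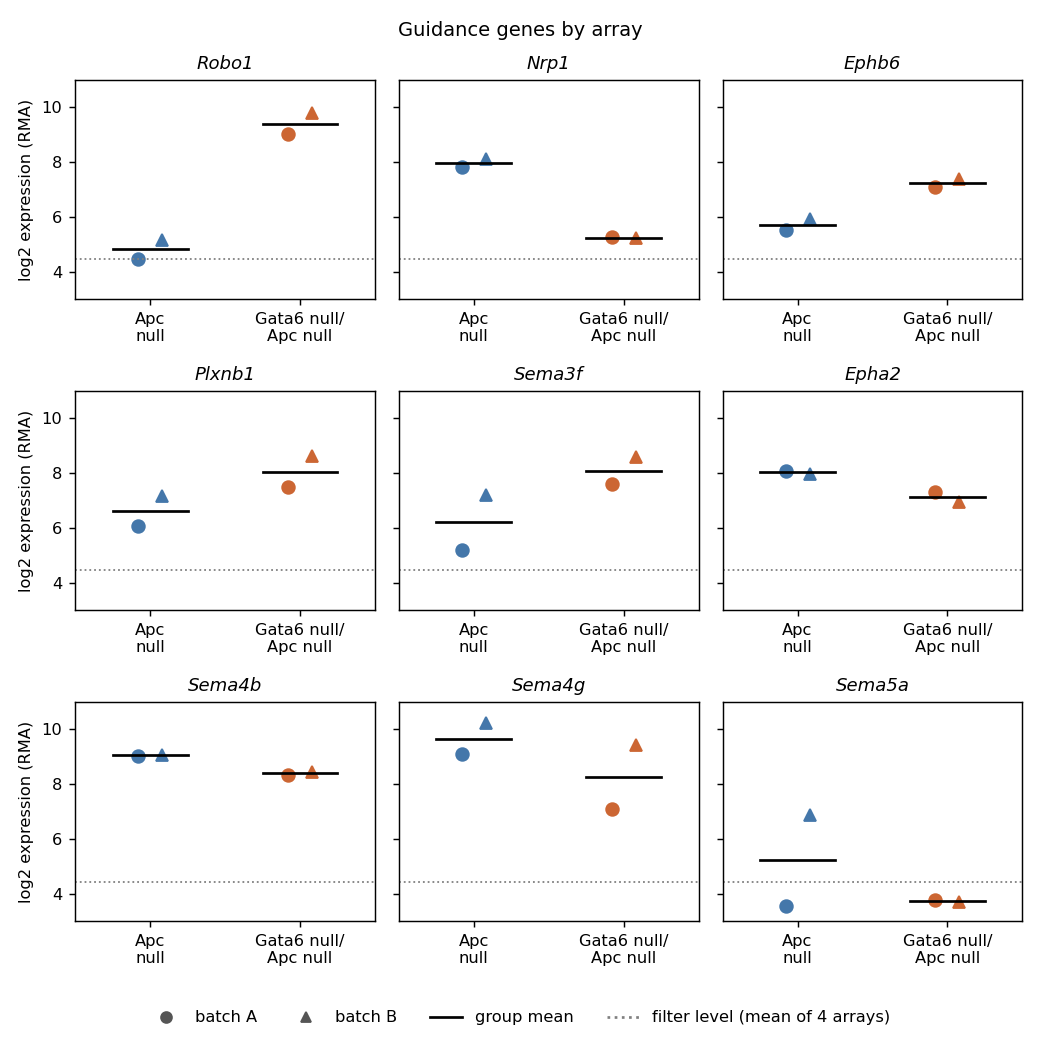
Log2 expression of 9 guidance genes on the 4 arrays, with circles for batch A, triangles for batch B, bars for group means and a dotted line at the filter level of 4.45. Robo1 sits at 9.00 and 9.79 on arrays labelled Gata6 null/Apc null against 4.48 and 5.15, and Nrp1 at 5.27 and 5.21 against 7.83 and 8.11, while Sema5a stands out on 1 Apc null array alone.

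Robo1, a receptor for Slits, read 4.48 and 5.15 in the Apc null arrays of batches A and B and 9.00 and 9.79 in those labelled Gata6 null/Apc null. The groups were far apart, and both Apc null arrays lay close to the filter level. The means were 4.81 ± 0.47 and 9.40 ± 0.56 (SD, n = 2 arrays each), a difference of 4.59 (SE 0.40, limma adjusted p = 0.0306). It was 4.53 within batch A and 4.65 within batch B. The Apc null values lay around the medians of their arrays (4.91 in batch A and 5.04 in batch B), so the 24.0-fold size is measured from a dim level. How far it depends on that level was not tested. In bulk RNA, more cells with the transcript cannot be told apart from more transcript per cell. Robo1 had a single probe set, so no other probe set bears on it. With the Apc null array of batch A left out, its limma adjusted p was 0.0581.

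No other Robo receptor was called. Robo3, a divergent member of the family, read 4.46 and 5.39 in the Apc null arrays against 4.01 and 4.35, a difference of -0.74 (SE 0.34, limma adjusted p = 0.772). Robo2 stayed between 3.12 and 3.18, and Robo4, a Robo of endothelium, between 3.32 and 3.61, both under the filter. The ligands Slit1 and Slit2 passed the filter, and neither was called. Slit2 read 4.59 and 5.19 in the Apc null arrays and 4.91 and 5.98 in those labelled Gata6 null/Apc null, so the groups overlapped (difference 0.55, limma adjusted p = 1.00). Slit1 read 5.20 and 5.44 against 5.26 and 5.14.

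Nrp1, the co-receptor for class 3 semaphorins and VEGF, read 7.83 and 8.11 in the Apc null arrays and 5.27 and 5.21 in those labelled Gata6 null/Apc null. The arrays of a genotype lay close together and the groups did not overlap. The means were 7.97 ± 0.20 and 5.24 ± 0.04 (SD, n = 2 arrays each), and Nrp1 fell by 2.73 on the log2 scale (SE 0.24, limma adjusted p = 0.0314), a 6.62-fold lower level. The difference was -2.55 within batch A and -2.90 within batch B. All 3 of its probe sets were lower: the next read 7.21 and 7.33 against 5.29 and 5.15, and the dimmest, with a mean under the filter, 4.57 and 4.42 against 3.37 and 3.37. The adjusted p was between 0.0721 and 0.0901 whichever array was left out, with differences of -2.58 to -2.87. Nrp2, its paralog, read 8.08 and 7.89 against 7.41 and 7.65. That difference of -0.46 (SE 0.24) went the same way without passing (limma adjusted p = 0.856, and 0.220 with the block).

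**Figure D2:**
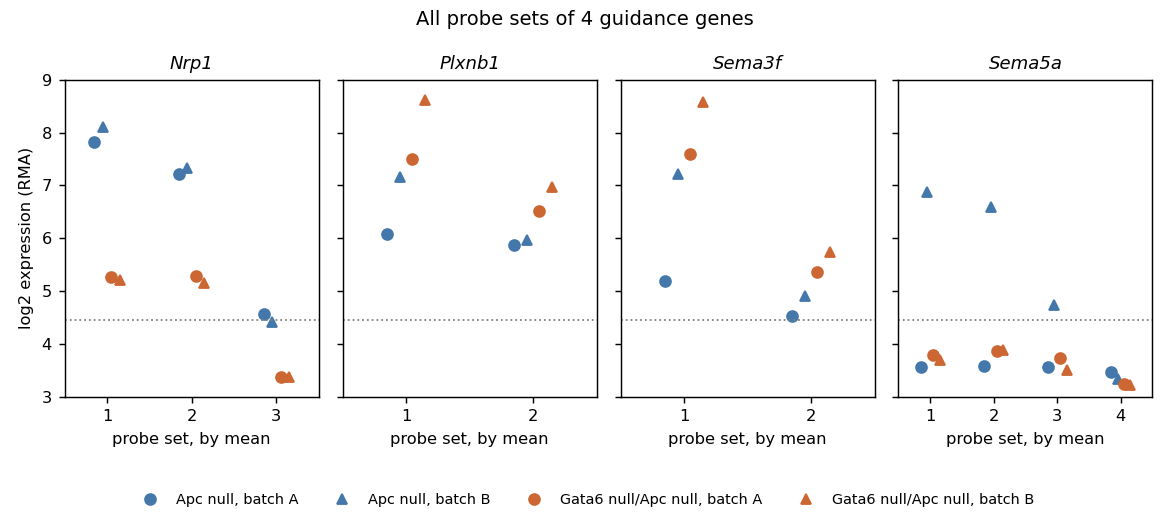
Log2 expression at every probe set of Nrp1, Plxnb1, Sema3f and Sema5a, ordered by mean within a gene, with blue for Apc null, orange for Gata6 null/Apc null, circles for batch A and triangles for batch B. Each Nrp1 probe set is lower on arrays labelled Gata6 null/Apc null and each Plxnb1 and Sema3f probe set higher, while 3 of 4 Sema5a probe sets are high on 1 array, at 6.88 for the brightest.

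Among the secreted class 3 semaphorins, 3 of 7 were above the filter. Sema3f, which signals mainly through neuropilin 2, read 5.19 and 7.21 in the Apc null arrays and 7.60 and 8.59 in those labelled Gata6 null/Apc null. Both batches showed a higher level, by 2.41 in A and 1.37 in B, but the spread between batches was also wide. The difference of 1.89 (SE 0.76) did not pass without the block (limma adjusted p = 0.669) and did with it (0.0143). Without the block, the Sema3f difference was 0.88 with Apc null batch A left out and 2.90 with Apc null batch B left out. The other Sema3f probe set read 4.52 and 4.92 against 5.36 and 5.74, a difference of 0.83. With each probe set tested separately and the block, that one had a limma adjusted p of 0.0661 and the one used 0.0189. Sema3b, a further secreted semaphorin, read 7.36 and 8.82 against 8.74 and 9.09, with most of the difference of 0.82 in batch A (1.38 against 0.27 in batch B, limma adjusted p = 0.976). Sema3c read 9.93 and 10.71 against 10.01 and 10.50, and its groups overlapped. Sema3a, the classic collapsin that binds neuropilin 1, read 3.80 and 3.85 against 4.54 and 3.98 and was not tested. Sema3d, Sema3e and Sema3g were also under the filter.

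Of the 9 plexins, 6 were tested and none passed without the block. Plxnb1, a receptor for Sema4d, read 6.08 and 7.15 in the Apc null arrays and 7.50 and 8.62 in those labelled Gata6 null/Apc null. It was higher by nearly the same amount in each batch, 1.43 in A and 1.47 in B, and higher in batch B in each genotype, by 1.07 and 1.11. The difference of 1.45 (SE 0.55) had a limma adjusted p of 0.614, and 0.00672 with the block. Without the block, the Plxnb1 difference was 0.91 with Apc null batch A left out and 0.89 with Gata6 null/Apc null batch B left out. Its other probe set read 5.88 and 5.97 against 6.52 and 6.97. With each probe set tested separately and the block, that one had a limma adjusted p of 0.0963 and the one used 0.00871. Plxnb2, also a class 4 semaphorin receptor, read 9.54 and 9.99 against 9.20 and 9.58, a difference of -0.37 (limma adjusted p = 0.986). The class A plexins, which pair with neuropilins, differed by -0.41 for Plxna1, 0.09 for Plxna2 and 0.41 for Plxna3. Plxnd1 differed by 0.00. Plxna4, Plxnb3 and Plxnc1 were under the filter.

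The class 4 semaphorins are membrane proteins, and 5 of 6 were tested. Sema4b read 9.02 and 9.08 in the Apc null arrays against 8.35 and 8.45. Its spread within a genotype was small and its difference of -0.65 (SE 0.19) passed with the block only (limma adjusted p = 0.0301, and 0.387 without it). The other Sema4b probe set, also above the filter, read 7.32 and 7.53 against 6.88 and 6.92. With each probe set tested separately and the block, that one had a limma adjusted p of 0.189 and the one used 0.0394. Sema4g read 9.10 and 10.22 against 7.10 and 9.43, so the groups overlapped across batches. It was lower within each batch, with differences of -1.99 in A and -0.79 in B, and had a limma adjusted p of 0.0371 with the block and 0.961 without it. The Sema4g difference of -1.39 moved with single arrays: without the block it was -0.23 with Gata6 null/Apc null batch A left out, -2.56 with batch B of that genotype left out and -0.83 with Apc null batch B left out. Sema4a differed by -0.44, Sema4d, the ligand of plexin B1, by -0.36 and Sema4c by 0.35, none of which passed in either fit. Sema4f was under the filter. Of the class 6 transmembrane semaphorins all 4 were tested, and their differences lay between -0.36 (Sema6b) and 0.04 (Sema6a). Sema7a, the GPI-anchored member, differed by -0.16.

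Sema5a, a transmembrane semaphorin with thrombospondin repeats, was set apart by 1 array. It read 3.57 (batch A) and 6.88 (batch B) in the Apc null arrays, against 3.79 and 3.70 in those labelled Gata6 null/Apc null. Its next probe set read 3.59 and 6.59 against 3.87 and 3.89, and another 3.56 and 4.74 against 3.73 and 3.51, so the high reading was not limited to 1 probe set. Its mean of 4.49 passed the filter level of 4.45 only through that array, since every other array read below that level. The difference of -1.48 (SE 1.07, limma adjusted p = 1.00) became 0.18 without the high array and -3.13 without the other Apc null array. The difference therefore rests on that array. Sema5b, its paralog, read 5.31 and 5.37 against 5.49 and 5.10.

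**Figure D3:**
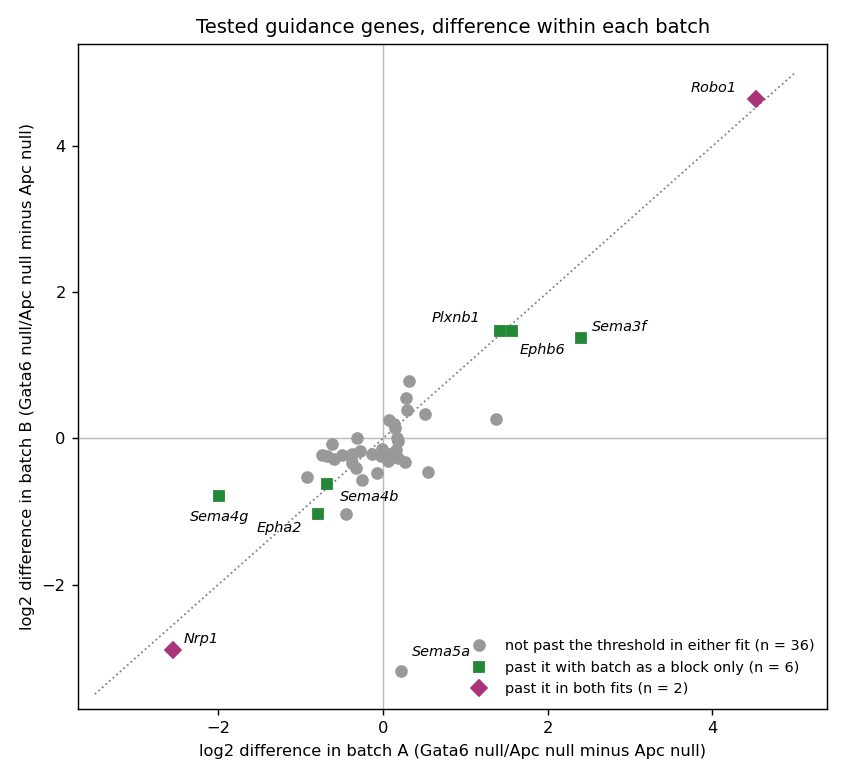
Log2 difference between genotypes within batch A (x axis) and within batch B (y axis) for the 44 guidance genes tested, with a dotted line of equality and the called genes and Sema5a named. Robo1 lies at 4.53 and 4.65 and Nrp1 at -2.55 and -2.90, and Sema5a lies far from the line at 0.22 and -3.18.

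The Eph receptors split at the filter, with 3 of the 9 EphA and 3 of the 4 EphB genes in the set tested. Ephb6, a receptor without kinase activity, read 5.51 and 5.91 in the Apc null arrays and 7.08 and 7.38 in those labelled Gata6 null/Apc null. The groups did not overlap, and the difference of 1.52 (SE 0.27) came to 1.57 within batch A and 1.47 within batch B. It passed with the block (limma adjusted p = 0.00793) and not without it (0.150). Epha2, a receptor found widely in epithelia, read 8.09 and 7.98 against 7.30 and 6.95, a difference of -0.91 (SE 0.25) with a limma adjusted p of 0.0288 with the block and 0.366 without it. Epha1 went the same way, at 6.77 and 6.38 against 5.85 and 5.86, and did not pass in either fit (difference -0.72, limma adjusted p = 0.531, and 0.105 with the block). Ephb3, known as a Wnt target of crypt base cells, read 8.27 and 8.47 against 7.88 and 8.23 (difference -0.32, limma adjusted p = 1.00). Ephb4 differed by 0.08 and Epha4 by -0.17. Epha3, Epha5, Epha6, Epha7, Epha8, Epha10 and Ephb1 were under the filter.

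All 7 ephrins in the set were tested and none passed in either fit. Their differences lay between -0.48 and 0.17. Efna1, a ligand of EphA2, read 9.18 and 10.41 in the Apc null arrays and 8.44 and 10.19 in those labelled Gata6 null/Apc null, so batch B exceeded batch A by 1.23 and 1.74 and the genotype difference, -0.48, was smaller than that. Efnb1 and Efnb2, ligands of the EphB receptors, differed by -0.22 and -0.30. Efna5 differed by -0.35, Efna4 by 0.14, Efna2 by 0.17 and Efnb3 by -0.03.

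Netrins and their Unc5 receptors had no member past the threshold in either fit. Unc5b, a receptor of endothelium and epithelium, read 8.90 and 9.33 in the Apc null arrays and 9.40 and 9.66 in those labelled Gata6 null/Apc null, a difference of 0.42 (SE 0.23, limma adjusted p = 0.871, and 0.0854 with the block). The other Unc5b probe set, also above the filter, read 6.54 and 6.63 against 6.51 and 6.55, a difference of -0.05. Unc5a differed by -0.28. Ntn4, a basement membrane netrin, differed by 0.16 and Ntn5 by -0.05. Ntn1, Ntn3, Unc5c and Unc5d were under the filter.

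**Figure D4:**
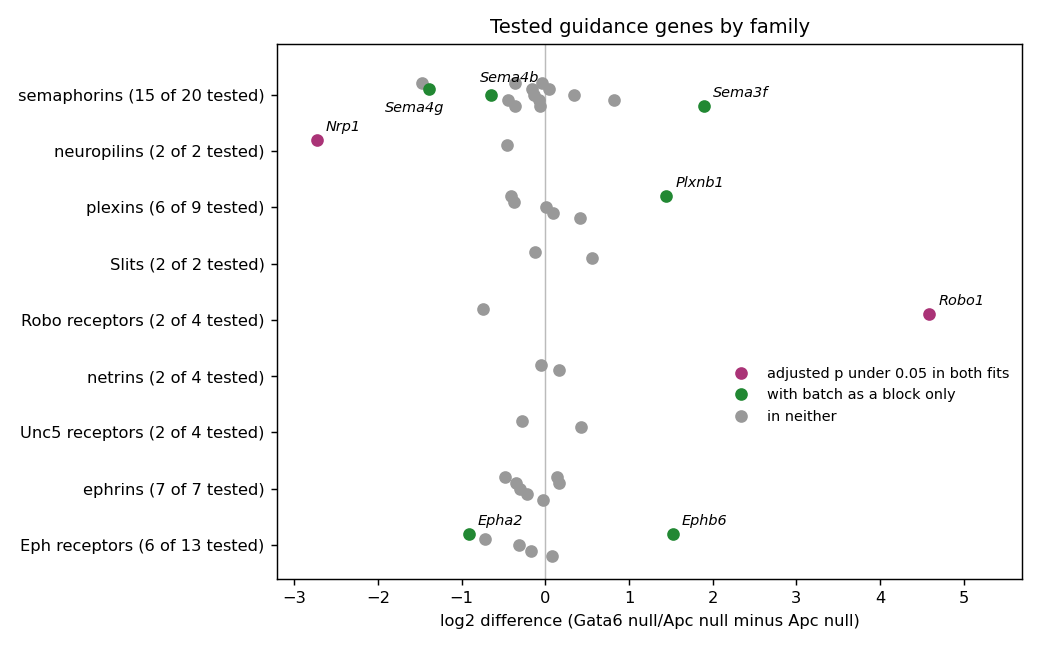
Log2 difference of each tested guidance gene (x axis) by family, with the number tested of all members beside each family name and the genes called in both fits or with the block coloured. The called genes spread over 5 families on both sides of 0, from Nrp1 at -2.73 to Robo1 at 4.59.

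Across the 44 tested members, 16 differences were above 0 and 28 below, with a median of -0.13 beside -0.03 over all genes tested. The receptors had a median of -0.22 and the ligands -0.10. The groups did not overlap for 10 members that were higher and 12 that were lower, beside 14.7% and 17.3% of all genes. A log2 difference of at least 1 in size was seen in 7 members, beside 5.10% of all genes. In 34 of the 44 the difference had the same sign in both batches, beside 63.4% of all genes. The 35 members that were neither called nor that large lay between -0.74 and 0.82, and 31 of them within 0.5 of zero. The 21 members under the filter read between 3.07 and 4.54 on every array, the highest being Sema3a in the array labelled Gata6 null/Apc null of batch A. Of 33 further member probe sets above the filter, 28 had the sign of the one used.

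Further genes of these pathways were taken from 6 hand-made lists that the rule for the members leaves out. Of 94 listed genes 67 were tested, and 1 passed without the block, beside 0.648% of all genes. With the block, 4 of the 67 were higher and 4 lower, beside 3.91% and 2.97% of all genes. The same shares of all genes apply to each list below. The 67 had a median difference of -0.03, beside -0.03 over all genes tested. The gene that passed was Pdzrn3, a ubiquitin ligase with PDZ domains that was listed with ephrin signalling and is also known for an association with semaphorin tails. It read 4.52 and 4.43 in the Apc null arrays and 6.42 and 6.48 in those labelled Gata6 null/Apc null, a rise of 1.98 (SE 0.18, limma adjusted p = 0.0314). The limma adjusted p was 0.149 and 0.140 with the Apc null array of batch A or B left out, and 0.0678 with each probe set tested separately.

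Among 11 tested genes of Slit and Robo signalling, 2 were higher with the block and none lower, and the median difference was 0.08. Enah, an actin regulator of the Ena/VASP family that acts below Robo, read 5.34 and 6.16 in the Apc null arrays and 7.89 and 8.28 in those labelled Gata6 null/Apc null (difference 2.33, SE 0.37, limma adjusted p = 0.116, and 0.00234 with the block). Gpc1, a glypican whose heparan sulfate chains bind Slits, read 7.25 and 6.94 against 9.00 and 9.16 (difference 1.99, SE 0.24, limma adjusted p = 0.0571, and 0.00252 with the block). The Slit-Robo GTPase-activating genes Srgap1, Srgap2 and Srgap3 differed by 0.43, -0.51 and 0.08.

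In netrin signalling, with 10 genes tested and a median of 0.15, the Src family kinase gene Fyn read 4.84 and 4.59 against 7.62 and 6.88. Its difference of 2.54 (SE 0.32) had a limma adjusted p of 0.0691, and 0.00213 with the block. Without the block, leaving out an array labelled Gata6 null/Apc null gave 0.0377 (batch A) or 0.0338 (batch B), and leaving out an Apc null array gave 0.170 (batch A) or 0.185 (batch B). With the mean of all its probe sets the Fyn difference was 1.75 (limma adjusted p = 0.203).

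Among 14 tested genes of ephrin and Eph signalling, with a median of -0.08, Vav2 and Vav3 were lower with the block. Vav2 read 7.39 and 7.44 against 6.52 and 6.67 (limma adjusted p = 0.387, and 0.0487 with the block). Vav3 read 6.75 and 5.39 against 4.75 and 4.56 (limma adjusted p = 0.503, and 0.0440 with the block), and its difference of -1.41 was -0.74 without the block and with Apc null batch A left out.

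Of 15 tested co-receptors and further cues, with a median of -0.08, Flrt3 and Ptprd were lower with the block. Flrt3, a membrane protein that binds Unc5 receptors, read 7.01 and 7.28 against 5.48 and 5.84 (difference -1.48, limma adjusted p = 0.144, and 0.00870 with the block). Ptprd, a receptor tyrosine phosphatase of cell adhesion, read 9.10 and 8.84 against 8.17 and 7.73 (difference -1.02, limma adjusted p = 0.301, and 0.00997 with the block). Dcc, the main netrin receptor, differed by -0.03.

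No gene passed in either fit among the 12 tested of semaphorin and plexin signalling, where Dpysl3, a collapsin response mediator, had the smallest p (difference -0.87, limma adjusted p = 0.437), or among the 5 tested VEGF ligands and receptors. Vegfa, a ligand of neuropilin 1, read 8.36 and 9.56 against 6.76 and 9.39, so its difference of -0.88 came mostly from batch A (-1.60 against -0.17 in batch B, limma adjusted p = 1.00).

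**Figure D5:**
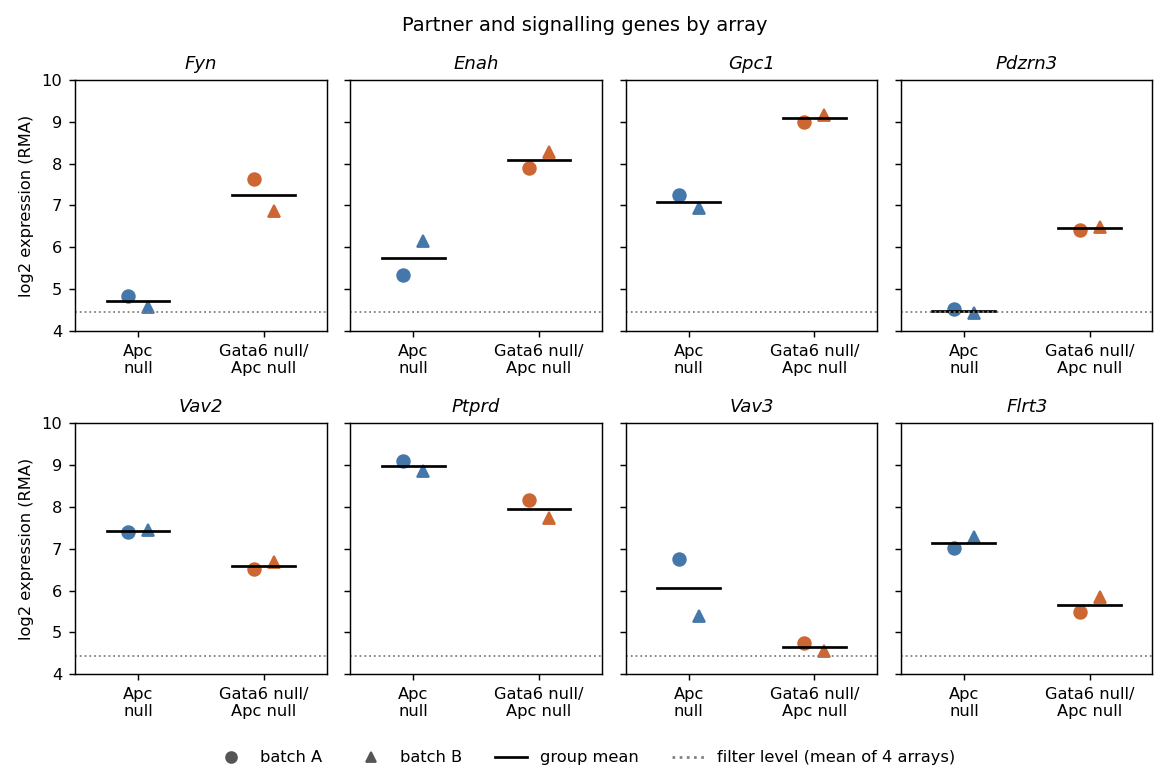
Log2 expression on the 4 arrays of the 8 partner and signalling genes called in either fit, with circles for batch A, triangles for batch B, bars for group means and a dotted line at the filter level. Fyn, Enah, Gpc1 and Pdzrn3 are higher on both arrays labelled Gata6 null/Apc null, and Vav2, Ptprd, Vav3 and Flrt3 lower.

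Markers of the labelled tissue were bright as a list, with array means of 9.92 to 10.40 over the 10 colon epithelial markers. Krt20 was the dimmest, at 5.96 and 5.59 in the Apc null arrays against 5.69 and 4.79. All 10 differences were below 0, with a median of -0.23 beside -0.03 over all genes tested. The groups did not overlap for 7 of them, all lower, beside 17.3% of all genes. Cdx2, an intestinal transcription factor in that list, read 9.13 and 9.41 in the Apc null arrays against 7.29 and 8.11, and was the list's single call with the block. Array means of the other lists were 4.18 to 4.25 for 11 fibroblast markers, 4.32 to 4.39 for 9 endothelial markers and 4.08 to 4.40 for 9 neuronal and glial markers, all under the filter level of 4.45. These are cell types in which Nrp1, Robo4, Unc5b and the axon receptors are also known, and their part in the differences was not tested. The endothelial gene Cdh5 read 4.45 to 4.62 and the neuronal gene Tubb3 4.46 to 4.84. Brighter members of these lists were Vwf (endothelial) at 5.08 to 6.04, Acta2 (mesenchymal) at 5.66 to 5.93 and Sox10 (neurons and glia) at 4.79 to 5.13. The 9 immune markers had means of 4.62 to 5.51. Ptprc, the pan-leukocyte gene, read 3.07 to 3.25, Cd3e 3.36 to 3.60, Itgam 3.33 to 3.71 and Adgre1 3.69 to 3.90, all under the filter. Csf1r read 4.58 to 4.73 and Cd79a 4.83 to 5.11. The brighter members of the list were Lyz2, Cd14 and Cd68. Lyz2 read 10.36 and 11.14 against 6.51 and 6.16 and was the list's single call in either fit (limma adjusted p = 0.0243, and 0.000732 with the block). Cd14 read 7.36 and 7.28 against 6.06 and 6.66, and Cd68 5.92 and 7.56 against 4.94 and 7.23. Of the 5 immune markers tested, 4 differences were below 0 and 1 above. The medians of the arrays were 4.91 to 5.04 log2 units, and precision is limited by the number of arrays.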

How the data were processed

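The deposited log2 expression values come from RMA (affy), per the submitters' processing notes; its version is not given in the sources used here. This method subtracts background, quantile-normalizes arrays and summarises probes, which removes array-wide shifts and compresses dim values. Per the labels, 25 ng of RNA was amplified. Of 45141 probe sets, 28898 had 1 gene in the platform annotation. The probe set with the highest mean stood for each gene, and genes averaging below the 40th percentile of probe sets were not tested. limma 3.58.1 in R 4.3.3 (trend, genotype as the single term) gave two-sided p-values. They had Benjamini-Hochberg adjustment over the 11874 genes and a threshold of 0.05. Prior degrees of freedom were 2.83 beside 2 residual ones, and 4.99 beside 1 residual one with batch as a block. An exact permutation test of 2 against 2 arrays cannot go below 0.333. Batch letters pair the arrays per the labels, and the batch differences of the genotypes correlated at 0.675 across genes. Genes called in either fit or differing by 1 or more got values on every array. Of the listed partners, those called in either fit were named, or else the one with the smallest p, and further genes named were chosen after their values were seen. The highest-level member of each family was not singled out, since probe levels do not compare between genes. The same limit holds for the means of the marker lists. Members and lists were chosen with earlier results of these data known. The fit was tested on simulated data.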

Additional observations from a re-analysis of the deposited data

How the results depend on the processing

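The fit on genotype alone called 2 guidance genes and 1 partner gene. With batch as a replicate block the counts were 8 and 8, beside 817 against 77 calls over all genes. With each probe set tested separately over 27022 probe sets, the limma counts were 0 and 0 (with 6 members and 10 partner genes at an unadjusted p under 0.05). The guidance count stayed at 2 with the mean of all probe sets (61 calls over all genes). It was also 2 without shared-sequence probe sets (56 over all genes), without a filter (80) and with the filter at the 60th percentile (53). It remained 2 without a trend (67) and with arrays centred on their medians (128). It fell whichever array was left out. Nrp1 then lost its call each time, and Robo1 lost its call with Apc null batch A left out. Sema5a gained a call in that last fit, though it passed the filter only through its reading in Apc null batch B. The partner count was 0 without shared-sequence probe sets and 0 with the filter at the 60th percentile, since Pdzrn3 was then not tested, 3 with arrays centred on their medians, where Gpc1 (limma adjusted p = 0.0415) and Fyn (0.0335) also passed, and 0 to 2 with an array left out. Not every gene was tested in every setting. Vav3 was absent with the mean of all probe sets, without shared-sequence probe sets and with the filter at the 60th percentile. Sema5a was absent with the mean of all probe sets and with that filter. Pdzrn3 was absent with that filter and without shared-sequence probe sets, and Epha2 without shared-sequence probe sets. Over 19 named genes and 220 comparisons with the main value, 2 turned in sign: Sema5a, at 0.18 with Apc null batch B left out, and Vegfa, at 0.43 with Gata6 null/Apc null batch A left out. With an array left out, Sema5a ranged from -3.13 to 0.18 and Vegfa from -2.20 to 0.43. A further 190 kept their direction and their side of the threshold, 10 lost the call and 18 gained it. Where no reason is given, the cause was not tested. Dim levels near the filter limit the size of folds.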
